A study of Rattus norvegicus with 6 samples.

Results

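A dense run of SYNCRIP peaks on the minus strand of chromosome 6, from 46626421 to 46628000 in the rat build rn6, was examined in rat cortical neurons. Its members are all peaks of the 3 SYNCRIP peak lists that lie wholly inside this 1580-nt window on that strand. They number 46 of 12583 peaks, with 18 of 5687 in replicate 1, 16 of 4163 in replicate 2 and 12 of 2733 in replicate 3. The window was selected on the measured coincidence of peaks, since peaks of all 3 libraries coincide in it at 10 or more places, so the coincidence described below was not tested. From its position it is expected to lie in Sox11, which encodes a SoxC-family transcription factor of differentiating neurons, but no rn6 gene annotation or rn6 sequence was used here to check this. The 46 peaks are therefore named by position and not as Sox11 peaks, with no exon or untranslated region assigned to them and no bases printed.

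The study mapped RNA contacts of SYNCRIP by individual-nucleotide resolution crosslinking and immunoprecipitation (iCLIP). Its 6 samples come from primary cortical neurons of Sprague-Dawley rats at day 6 in vitro, grown on 10 cm plates and irradiated with 300 mJ/cm2 of UV-C, with cytoplasmic RNA as the labelled molecule. The SYNCRIP group of 3 used an anti-hnRNPQ antibody, and the control group of 3 used an IgG1 isotype antibody. The submitters describe 3 biological replicates. No IgG library was analysed here. No background of the precipitation stands beside any value, and peaks in the window are not shown to exceed it. The depth of the libraries is unknown and their lists are of unequal length, which leaves a missing peak no evidence of an unbound site. No transcript levels were used here, and the part of transcript abundance in the number of peaks was not tested.

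SYNCRIP, also named hnRNP Q, is an RNA-binding protein with several RNA recognition motifs. It is found in the nucleus and the cytoplasm, travels with messenger RNA in neuronal transport granules, and is known for roles in messenger RNA stability and translation. In iCLIP, UV light fixes the protein to the RNA it touches, the antibody recovers the complexes, and reverse transcription tends to stop at the crosslinked base. The deposited peaks lie on a grid of 20-nt bins, so the positions below are borders of bins and not crosslinked bases. Positions inside the window are also counted from its 5′ end, taking the deposited strand as that of the RNA: nt 1 is genome position 46628000 and nt 1580 is 46626421.

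The libraries placed peaks along the whole window, and replicate 1 covered the most of it. Peaks of replicate 1 covered 860 nt (54.4%), those of replicate 2 covered 700 nt (44.3%) and those of replicate 3 covered 420 nt (26.6%), a mean of 660 ± 223 nt (SD, n = 3). At least 1 library had a peak over 1040 of the 1580 nt. All 3 libraries covered the same 340 nt (21.5% of the window), exactly 2 covered 260 nt (16.5%) and 1 alone covered 440 nt (27.8%). The remaining 540 nt (34.2%) had no peak in any list. Of the covered length, then, 32.7% was common to all 3 libraries.

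**Figure D1:**
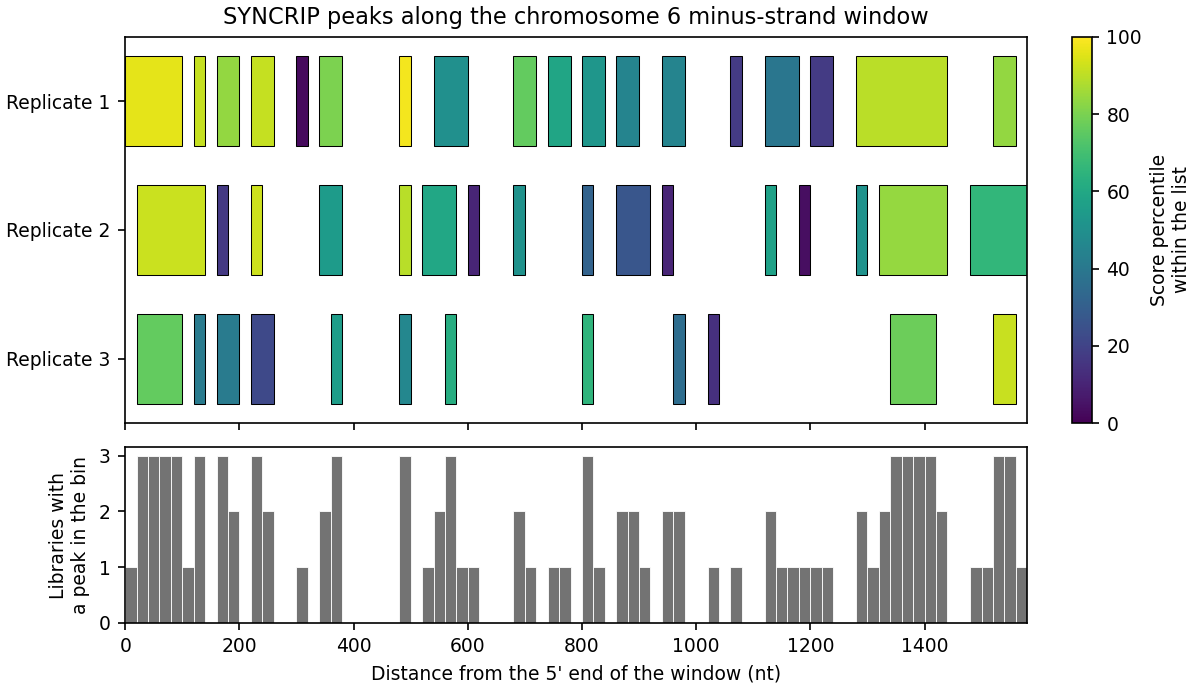
Peaks of each SYNCRIP library along the window, as distance from its 5′ end in nt, coloured by the percentile of their score within their own list (upper panel), and the number of libraries with a peak in each 20-nt bin (lower panel). Bins with 3 libraries gather near both ends, at nt 21 to 100 and nt 1341 to 1420, and the longest empty stretch is nt 381 to 480.

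Coverage was uneven along the window, and the ends held more of the common bins than the middle. In the first 400 nt from the 5′ end, peaks of replicates 1, 2 and 3 covered 260, 200 and 200 nt, and 160 nt were common to all 3. From nt 401 to 800 they covered 160, 120 and 40 nt, with 40 nt in common. From nt 801 to 1200 they covered 200, 140 and 60 nt, with 20 nt in common. Both middle stretches thus had fewer common bins than the first, and replicate 3 covered the least of each. In the last 380 nt the libraries covered 240, 240 and 120 nt, and 120 nt were common to all 3, and replicate 3 again covered the least. These stretches were drawn after the peaks had been seen, and the difference between them was not tested.

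Merging overlapping peaks of the 3 lists gave 20 regions in the window. Of these, 10 had peaks in all 3 libraries and are called core regions, where 24.9% of the 7023 regions of the whole series are core. Another 3 regions had peaks in replicates 1 and 2 alone, so that 13 regions had peaks in at least 2 libraries (65.0%), against 48.2% over the series. The other 7 regions had a peak in a single library, 4 in replicate 1, 2 in replicate 2 and 1 in replicate 3. Since the window was selected for its core regions, nothing is read from these shares. The number of core regions fell to 6 when each list was cut to its 2733 highest scores, the length of the shortest list, and to 3 when peaks had to reach 1.5 times the lowest score of their list. Core regions were spread over the window, with a median distance of 130 nt between neighbouring midpoints, a smallest of 60 nt and a largest of 400 nt. The widest gap between neighbouring regions of any kind was 100 nt, and 3 pairs of neighbouring regions touched end to end without overlapping.

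The core region at the 5′ end (46627861 to 46628000, nt 1 to 140) had the highest mean score rank of the window. Scores are whole numbers that the authors deposited with each peak, and their meaning is not stated in the sources used here. They are used as ranks within a list, given as the percentile of a peak among all peaks of that list. Replicate 1 had a pair of peaks here with scores of 123 and 92, replicate 2 a single 120-nt peak with a score of 74, and replicate 3 a pair with scores of 36 and 25. The higher peak stood at percentile 96.0, 92.0 and 75.8 of the respective lists, a mean of 87.9 ± 10.7 (SD, n = 3). The libraries shared 100 of its 140 nt, in runs of 80 and 20 nt that in replicates 1 and 3 belonged to separate peaks.

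Both core regions at the other end also ranked high in every library. The wider one (46626561 to 46626720, nt 1281 to 1440) spanned 160 nt as 1 peak of replicate 1, which scored 86. Replicate 2 divided the same stretch into peaks scoring 58 and 36, and replicate 3 had an 80-nt peak scoring 37. Its percentiles were 89.6, 84.3 and 77.5, the smallest spread among the core regions (mean 83.8 ± 6.09, SD, n = 3). The last region of the window (46626421 to 46626520, nt 1481 to 1580) scored 72, 42 and 55, at percentiles 83.7, 65.9 and 91.7. Its 55 was the highest score of replicate 3 in the window, whereas replicate 1 had 5 higher peaks there and replicate 2 had 4. Replicates 1 and 3 had the same 40-nt peak, and that of replicate 2 was 100 nt wide.

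The single bin at 46627501 to 46627520 (nt 481 to 500) was the one core region with identical coordinates in all 3 lists. Its score was 171 in replicate 1, 67 in replicate 2 and 26 in replicate 3. The score of 171 was the highest of the window in replicate 1 and stood at percentile 98.2 of that list, and that of replicate 2 stood at 89.4. In replicate 3 the peak ranked seventh of the 12 in the window, at percentile 46.4. The bin followed the longest stretch without a peak in any library, the 100 nt from 46627521 to 46627620. In each deposited list the peaks with coordinates identical in all 3, 815 in number, stand first and in the same order, this one at line 478, which means that the lists were ordered together before deposit. Whether such a step shaped which peaks coincide was not tested.

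The region at 46627741 to 46627780 (nt 221 to 260) divided the libraries further. It scored 93 in replicate 1 and 76 in replicate 2, where it was the highest of the window, at percentiles 91.3 and 92.5. In replicate 3 it scored 22, at percentile 22.3, which left a mean of 68.7 ± 40.2 (SD, n = 3), the widest spread among the core regions. The neighbouring region at 46627801 to 46627840 (nt 161 to 200) scored 72, 28 and 25, at percentiles 83.7, 16.5 and 41.3. The first of these sites thus ranked high in replicates 1 and 2 but not in replicate 3, and the second ranked high in replicate 1 alone. At 46627621 to 46627660 (nt 341 to 380) the scores were 67, 37 and 28, and all 3 peaks lay above the middle of their lists, at percentiles 80.3, 54.4 and 55.4.

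**Figure D2:**
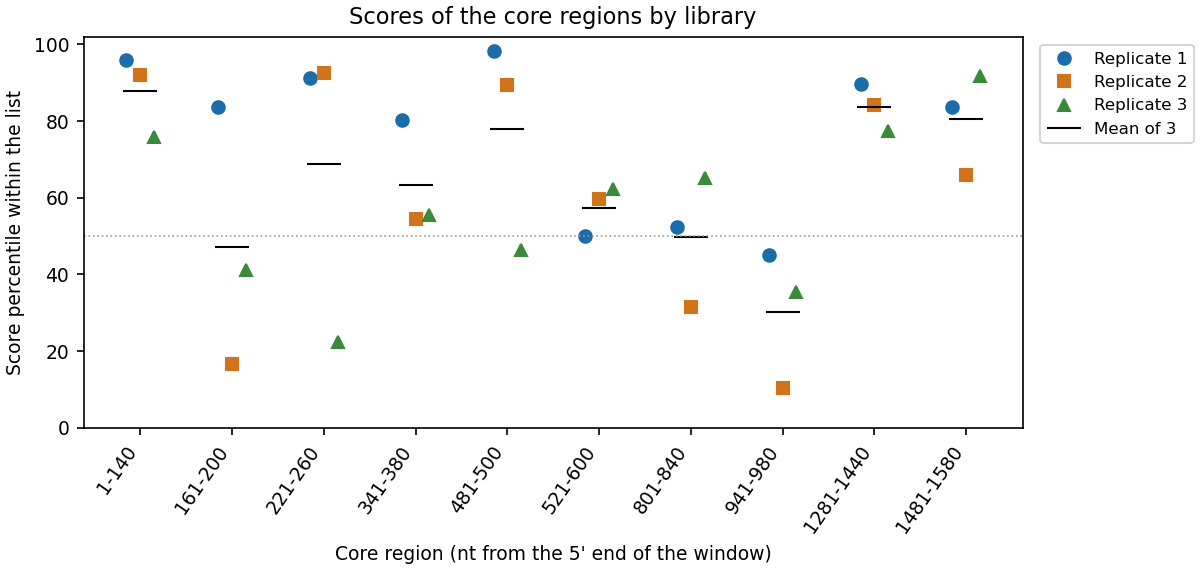
Percentile of the score within each library's own list for the 10 core regions in order from the 5′ end, with 1 point per library (the higher peak where a library has a pair) and a bar for the mean of 3. The regions at nt 1 to 140, 341 to 380, 1281 to 1440 and 1481 to 1580 lie above 50 in every library. The region at nt 221 to 260 ranges from 22.3 to 92.5.

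The other core regions, in the middle of the window, had moderate or low ranks. The region at 46627401 to 46627480 (nt 521 to 600) scored 45, 39 and 30, at percentiles 49.9, 59.8 and 62.3. The region at 46627161 to 46627200 (nt 801 to 840) scored 46, 31 and 31, at percentiles 52.4, 31.5 and 65.0. In both, replicate 3 had the highest percentile of the 3, and the libraries had a single bin in common. The lowest core region was at 46627021 to 46627060 (nt 941 to 980), with scores of 43, 27 and 24 and percentiles of 45.0, 10.4 and 35.5. It is core only through replicate 1, whose 40-nt peak spans neighbouring bins that replicates 2 and 3 occupy separately, and no nt of it is common to all 3 libraries. The other 9 core regions each contain at least 1 bin common to all 3.

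Of the 10 regions without all 3 libraries, 9 lay between nt 601 and 1240, and these 10 included the lowest score of each library in the window. Their peaks had a median percentile of 39.1 in replicate 1 (7 peaks) and 26.8 in replicate 2 (5 peaks), and the single one of replicate 3, at 46626961 to 46626980, stood at 14.0. Peaks in core regions had medians of 83.7, 59.8 and 55.4 (11 peaks in each library). The ranges overlapped in replicates 1 and 2, since non-core peaks reached percentile 75.8 and 57.4 while core peaks went down to 45.0 and 10.4. The highest-ranking region that was not core lay at 46627281 to 46627320 (nt 681 to 720), with scores of 61 and 36 in replicates 1 and 2 and no peak in replicate 3. At the bottom, the single bin at 46627681 to 46627700 had the lowest score deposited for replicate 1 (32), and that at 46626801 to 46626820 the lowest for replicate 2 (26).

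Most window peaks of one library met a peak of another. In replicate 1, 14 of 18 peaks overlapped a peak of at least 1 other library (77.8%), against 58.5% over its whole list. In replicate 2 it was 14 of 16 (87.5%), against 78.4%, and in replicate 3 it was 11 of 12 (91.7%), against 86.1%. The window was chosen for such overlaps, so nothing is read from these shares, and the part of its peak density in them was not tested. The edges of overlapping peaks often differed. Of 15 overlapping pairs between replicates 1 and 2, 10 had the same 5′ edge, 4 the same 3′ edge and 2 both. Of 11 pairs between replicates 1 and 3, 6 shared the 5′ edge, 8 the 3′ edge and 5 both. Of 10 pairs between replicates 2 and 3, 5 shared the 5′ edge, 5 the 3′ edge and 2 both. In each pair of libraries, overlapping peaks thus differed in at least 1 edge more often than they matched in both.

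Peaks in the window were wider than those of the lists at large, most so in replicate 1. A single bin made up 4 of 18 peaks in replicate 1 (22.2%), 10 of 16 in replicate 2 (62.5%) and 7 of 12 in replicate 3 (58.3%), where the lists as a whole had 75.5%, 77.0% and 78.4%. The mean width was 47.8, 43.8 and 35.0 nt in the window and 30.5, 29.6 and 28.3 nt in the lists. Widths were not compared with those in other dense runs of peaks, so they are not given as particular to the window. The part of peak width in the coincidence of peaks was not tested. Within the window, score and width had a Spearman rho of 0.13, 0.46 and 0.43 over the 18, 16 and 12 peaks. These peaks are neighbours from 1 stretch of RNA. Over the whole lists rho was 0.35, 0.36 and 0.34 (5687, 4163 and 2733 peaks).

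The window did not stand high in score. Its peaks had a median percentile of 67.2 in replicate 1, 52.8 in replicate 2 and 50.9 in replicate 3, a mean of 57.0 ± 8.93 (SD, n = 3). Peaks in the highest 10% of their list numbered 4 of 18, 2 of 16 and 1 of 12. Scores of the regions with peaks in both of a pair of libraries had a rank correlation of 0.70 between replicates 1 and 2 (13 regions), 0.09 between replicates 1 and 3 (10 regions) and 0.16 between replicates 2 and 3 (10 regions). Over all shared regions of the series the corresponding values were 0.63, 0.60 and 0.61 (2980, 2045 and 1855 regions). By these values replicate 3 ordered the sites of the window differently from the other two, though the 0.70 covers more regions. Apart from 36, 37 and 55, the highest scores of replicate 3 in the core regions ran from 22 to 31. The lowest score of its list was 20, so small steps in score near that minimum set much of its order. The regions share libraries and neighbours and are few, so these values describe the lists and carry no test.

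Peaks continued on the same strand on both sides of the window. The nearest region outside it on the 3′ side, at 46626181 to 46626200, was 220 nt away, just beyond the 200 nt over which regions were chained, and had peaks in replicates 1 and 2 with scores of 40 and 32. On the 5′ side the nearest was the bin at 46628981 to 46629000, 980 nt away, with scores of 54, 39 and 20 in the 3 libraries. Beyond the 3′ side lay 10 regions from 46624801 to 46626200, 4 of them core, with 9, 6 and 7 peaks. Beyond the 5′ side lay 12 regions from 46628981 to 46630320, 4 of them core, with 12, 9 and 6 peaks. The window is thus the middle and densest part of a stretch of 5520 nt with 42 regions, 18 of them core. The window was selected for its core regions, so nothing is read from its greater density.

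This longer stretch was isolated. The next minus-strand region of any library was 1113300 nt further on the 3′ side and 3968020 nt on the 5′ side. No plus-strand peak lay within 10 kb of the window in any list, and the nearest was 2216280 nt away.

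The flanking groups held the highest-ranking regions of the stretch. On the 5′ side, the region at 46629061 to 46629120 had the same 60-nt peak in all 3 lists, with scores of 194, 121 and 53 at percentiles 98.7, 97.8 and 91.0. The region at 46629581 to 46629780 reached scores of 105, 78 and 44, at percentiles 93.8, 93.2 and 85.4. On the 3′ side, the region at 46625541 to 46625700 reached 119, 77 and 64, at percentiles 95.5, 92.9 and 94.5. Their mean percentiles of 95.8, 90.8 and 94.3 were all above the 87.9 of the highest region inside the window. Unlike several sites inside it, they ranked high in replicate 3 as well. The window, which was selected for its core regions, holds more of these than either flank but not the regions of highest rank.

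**Figure D3:**
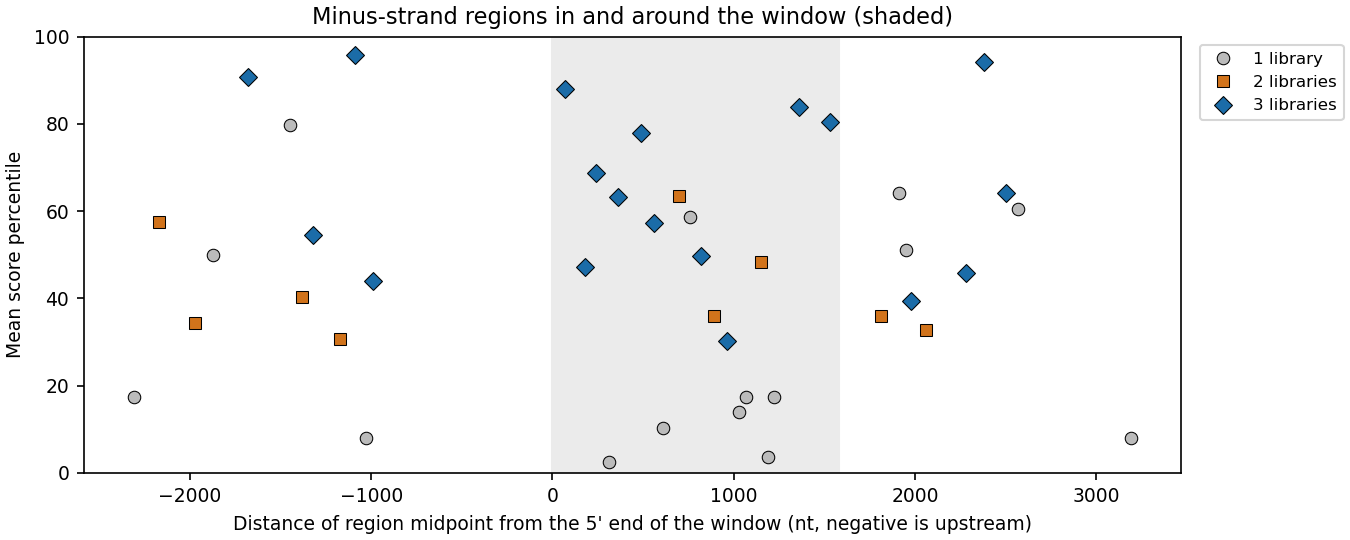
Mean score percentile, over the libraries with a peak, of each of the 42 minus-strand regions in and around the window (shaded), by distance of the midpoint from the window's 5′ end in nt, with the symbol giving the number of libraries. Core regions above percentile 90 lie only outside the shaded window, 2 upstream and 1 downstream, and the stretch of 980 nt upstream of it is empty.

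Among clusters formed in the same way, the window lay at the limit that had been used to select it. Chaining regions across gaps of up to 200 nt gave 8 clusters with at least 10 core regions, of which 6 had more than 10 and 2 had exactly 10. Just below this limit, 3 clusters had 9 core regions. The 3 clusters nearest to the window in number of core regions were on chromosome 18 minus (37713061 to 37714620, with 10 core of 18 regions), chromosome 4 plus (70331781 to 70334160, with 9 of 22) and chromosome 15 minus (43475741 to 43477980, with 9 of 22). In the window, peaks covered 41.8% ± 14.1 of the span (SD over 3 libraries), and in these clusters they covered 41.5% ± 7.06, 43.1% ± 11.2 and 32.4% ± 9.83. In the window and in each of these clusters, replicate 1 covered the most and replicate 3 the least. By library, the window had a cover of 54.4%, 44.3% and 26.6% in replicates 1, 2 and 3. The chromosome 15 cluster had less in every library, at 42.0%, 33.0% and 22.3%. Those on chromosome 18 (48.7%, 41.0% and 34.6%) and chromosome 4 (55.5%, 40.3% and 33.6%) had more in some libraries and less in others.

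Peak counts by library followed different courses in these clusters. The window had 18, 16 and 12 peaks in replicates 1, 2 and 3, in the order of list length, as had the cluster on chromosome 15 with 19, 18 and 12. The cluster on chromosome 18 had 14, 15 and 16 peaks and that on chromosome 4 had 21, 18 and 21. The median score percentile over all peaks was 54.9 in the window and 72.1, 78.5 and 65.9 in the clusters on chromosomes 18, 4 and 15. By library the window stood at 67.2, 52.8 and 50.9, against 88.6, 64.0 and 65.6 on chromosome 18, 77.5, 81.5 and 75.8 on chromosome 4, and 62.5, 66.7 and 68.6 on chromosome 15. The window was the lowest of the 4 in replicates 2 and 3, while in replicate 1 the cluster on chromosome 15 was lower. Over the 46 clusters with at least 5 core regions, the median of this percentile was 67.5 and the median cover was 38.0%, with a range of 19.2% to 66.2%. These comparisons are descriptions of 1 window and 3 clusters, and no difference between them was tested.

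**Figure D4:**
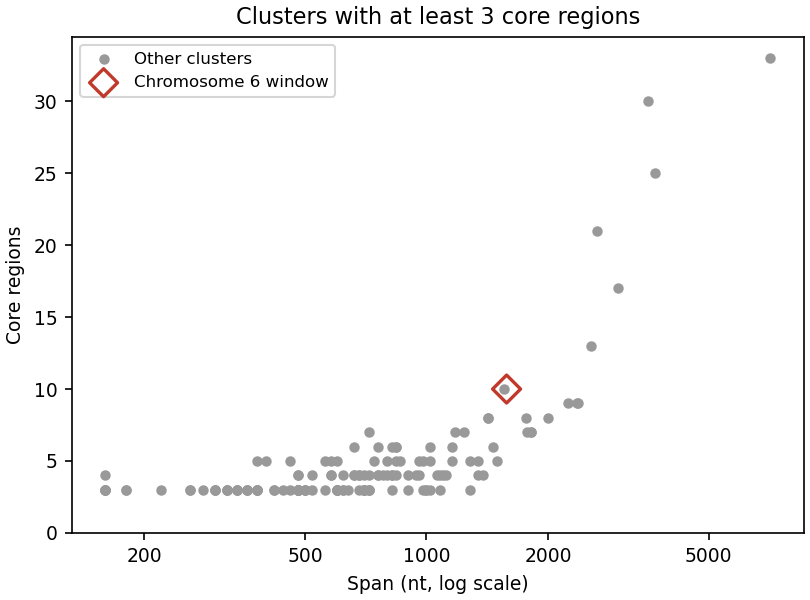
Number of core regions against span in nt (log scale) for all clusters with at least 3 core regions, with 1 point per cluster and the chromosome 6 window as an open diamond. The window, with 10 core regions over 1580 nt, lies almost on the chromosome 18 cluster, with 10 over 1560 nt, and below 6 clusters with more.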

How the data were processed

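Per the submitters' processing notes, STAR and the build rn6 were used; no version is named there. Per the file names, the authors called peaks with Piranha in 20-nt bins, with 1 deposited list per SYNCRIP library. The deposited score of a peak has no stated unit, so scores were ranked within lists only, as the percent of peaks of the list with a lower score, with ties counted at their midpoint. How the caller was set, how PCR copies were handled and whether IgG entered the calling is not given in the sources used here. A column that is 0 throughout was not used, and 1 incomplete row of replicate 1 was left out. Peaks overlapping by at least 1 bp on one strand were merged into regions; a merged region may join peaks that do not overlap each other. Regions were chained over gaps of at most 200 nt. Positions are 1-based. The window and its measures were chosen with earlier results of these data known. The core regions, and those first, last, widest or highest, are named; the 3 likest clusters are those nearest in core regions, then in regions. Planned steps on transcript position and a gene list needed an rn6 annotation and were not run. Overlap counts were checked on simulated lists. Python 3.11.15, pandas 2.3.3, numpy 2.4.6 and scipy 1.17.1 were used.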

Additional observations from a re-analysis of the deposited data

How the results depend on the processing

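Of 46 alternative values, 26 stayed within the limits set for them. The limits were 1.5 times for counts, 1 SD between libraries for means, and no change for spacing and extent. Some values could not pass their limit. Leaving out 1 of 3 libraries cannot move their mean by 1 SD, which settled those values for cover and percentile beforehand. Ignoring strand could change nothing, since no plus-strand peak lay within 10 kb of the window. The 26 are therefore no measure of stability. For the shared share, the SD (7.13) was that of each library's share of peaks overlapping any other library. That is a different measure from the mean of ordered pairs that it was applied to. The score minimum had the widest effect. When peaks had to score 1.5 times the lowest value of their list, the window had 7.0 peaks per library on average against 15.3, a mean cover of 407 nt against 660, a shared share of 63.3% against 76.3% (mean of 6 ordered pairs) and 3 core regions, those at nt 1 to 140, 1281 to 1440 and 1481 to 1580, a median of 730 nt apart. With lists cut to equal length there were 6 core regions, a median of 170 nt apart. A reciprocal overlap of 50% gave 8 core regions and a shared share of 61.8%, identical coordinates gave 1 and 20.4%, and joining over 20 nt gave 6, through fusion of neighbours, and 87.8%. Among peaks 1 bin wide the mean percentile was 47.4, against 57.0. Chaining over 500 nt extended the cluster to 2580 nt and over 1000 nt to 5520 nt. Leaving out a replicate gave 14 to 17 peaks per library, a cover of 560 to 780 nt, percentiles of 51.8 to 60.0 and extents of 1560 to 1580 nt. Regions with peaks in both remaining libraries then numbered 9 to 13, with spacings of 120 to 125 nt. That is not the definition of a core region above, which needs all 3 libraries. The shared share, averaged only over the ordered pairs of the remaining libraries, was 69.8% to 82.6%. No paired analysis was possible because values of only 1 antibody group were used here.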
